A study of Homo sapiens with 6 samples.

Results

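The enzymes that clear drugs, hormones and reactive aldehydes were followed in CAOV2 human ovarian cancer cells after silencing of TAZ, in 67 of the 17211 genes of the deposited RNA-seq table. TAZ, the product of WWTR1, acts in the Hippo pathway as a partner of TEAD transcription factors. The genes were chosen by name: cytochromes P450 (CYP, 20 genes, without CYP51A1), UDP-glucuronosyltransferases (UGT, 6), glutathione transferases (GST, 11), sulfotransferases (SULT, 5), aldehyde dehydrogenases (ALDH, 14) and aldo-keto reductases (AKR, 11), each by a symbol of family, number and letter, with no pseudogenes. ALDH2 has no letter in its symbol and is outside that rule. In the GENCODE release 29 annotation 133 protein-coding genes have such symbols. Those not among the 67 were not analysed here, so each family is described by these members.

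Cells received an siRNA that targets TAZ in 3 libraries (siTAZ) and a non-targeting siRNA in 3 libraries (siNT). In both groups the cells were transfected for 2 days with 100 pmol of siRNA by a lipid reagent and were collected on day 3. The labels call CAOV2 both a cell line and primary cells, and call the samples biological replicates. The labels do not say if these were separate cultures, and p-values here rest only on the scatter among these 6 samples, which can be technical. Values are reads divided by a size factor for each library, with 28458503 to 34488196 reads in genes in siTAZ libraries and 25478595 to 28928432 in siNT libraries. WWTR1 itself stood at 242.1, 277.2 and 279.7 in the siTAZ libraries and at 4359, 4217 and 4259 in the siNT libraries, 16.1-fold lower after siTAZ.

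Drug metabolism is usually described in phases. P450 enzymes, which sit in the endoplasmic reticulum or mitochondria and take electrons from partner proteins, insert oxygen into drugs, fatty acids, retinoids, vitamin D and sterols. Aldehyde dehydrogenases oxidise aldehydes to acids and aldo-keto reductases reduce aldehydes and ketones to alcohols. UGT, SULT and GST enzymes then attach glucuronic acid, sulfate or glutathione, which makes the product more soluble. These genes are best known from liver and gut, and in ovarian and other carcinomas ALDH1A1 is widely used as a marker of stem-like cells.

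Many of the members sit in tandem arrays of related genes, and 6 promoters are printed because they contrast members of 1 array and hold most of the matches to a core promoter motif described further on. They are RefSeq sequences of the GRCh38.p14 build, which matched 56 of the 67 members, and each covers the 250 bases before the annotated start of the gene, read 5′ to 3′. Capitals mark TATAAA, or TTTATA where it lies on the other strand, beginning 20 to 40 bases before the start. AKR1C1 has no such match and is given beside its neighbours AKR1C3 and AKR1C4.
AKR1C3 (chr10:5048531-5048780, plus strand): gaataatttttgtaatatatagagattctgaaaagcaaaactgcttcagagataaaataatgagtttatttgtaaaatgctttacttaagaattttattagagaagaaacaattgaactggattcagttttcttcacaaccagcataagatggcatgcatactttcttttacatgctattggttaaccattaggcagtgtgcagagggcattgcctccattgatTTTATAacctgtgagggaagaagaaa
AKR1C4 (chr10:5196587-5196836, plus strand): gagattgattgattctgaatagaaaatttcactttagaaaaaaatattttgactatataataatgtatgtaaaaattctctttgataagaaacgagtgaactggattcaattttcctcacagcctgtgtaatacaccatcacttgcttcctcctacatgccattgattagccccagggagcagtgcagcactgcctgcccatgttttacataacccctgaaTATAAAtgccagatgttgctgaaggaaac
AKR1C1 (chr10:4963165-4963414, plus strand): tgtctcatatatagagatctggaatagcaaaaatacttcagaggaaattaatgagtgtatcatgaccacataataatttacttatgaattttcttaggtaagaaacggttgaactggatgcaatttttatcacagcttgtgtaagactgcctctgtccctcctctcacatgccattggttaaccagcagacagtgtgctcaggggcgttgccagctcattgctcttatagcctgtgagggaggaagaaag
SULT1E1 (chr4:69860146-69860395, minus strand): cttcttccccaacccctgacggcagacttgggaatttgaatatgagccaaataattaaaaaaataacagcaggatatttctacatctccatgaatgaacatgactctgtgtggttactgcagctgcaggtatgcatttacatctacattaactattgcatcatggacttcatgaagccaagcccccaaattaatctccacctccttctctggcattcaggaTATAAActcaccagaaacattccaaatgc
GSTA2 (chr6:52763476-52763725, minus strand): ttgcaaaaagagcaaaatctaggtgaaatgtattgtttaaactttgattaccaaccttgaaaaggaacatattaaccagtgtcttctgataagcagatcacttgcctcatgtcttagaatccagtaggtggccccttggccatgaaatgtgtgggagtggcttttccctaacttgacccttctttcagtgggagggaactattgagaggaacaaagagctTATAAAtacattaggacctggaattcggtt
CYP1A1 (chr15:74725529-74725778, minus strand): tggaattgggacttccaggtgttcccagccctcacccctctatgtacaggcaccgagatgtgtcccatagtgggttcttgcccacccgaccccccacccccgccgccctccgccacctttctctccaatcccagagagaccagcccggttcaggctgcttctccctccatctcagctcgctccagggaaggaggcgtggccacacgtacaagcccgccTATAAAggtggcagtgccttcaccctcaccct

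Across the 67 genes the change was mostly upward. After siTAZ 42 members (62.7%) rose and 6 (8.96%) fell, and 19 did not pass the test, which was limma over all 17204 genes tested with a Benjamini-Hochberg adjusted p under 0.05. Over all genes tested 28.3% rose and 27.5% fell, and 55.8% were called in either direction. Of the members 24 (35.8%) rose at least 2-fold, against 6.7% of all genes, and 0 fell at least 2-fold, against 3.91% of all genes. Alternative settings named below are other scalings, filters, added constants and tests, a term for the replicate number, and leaving out each library, 15 in all. The median log2 fold change, siTAZ over siNT on the log2(value + 1) scale, was 0.72 among the members and -0.0013 among all genes. The libraries of the 2 groups did not overlap in 52 of the 67 members, and in 61.4% of all genes. Many members given in every library below were chosen partly for a lack of overlap, which is thus no added support for them. In bulk RNA, fewer cells that express a gene and less RNA per cell cannot be told apart.

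Counts are given by expression level and by family, with no test of a difference between levels or families. Counts in the smaller groups named further on also stand against the 28.3% of all genes that rose and the 27.5% that fell. Among the 24 members with a mean value under 100, 18 rose and 0 fell, and 17 (70.8%) rose at least 2-fold, against 12.7% of all genes at that level. Among the 43 members with a mean of at least 100, 24 (55.8%) rose and 6 (14.0%) fell, against 32.5% and 33.7% of all genes at that level, and 7 (16.3%) rose at least 2-fold, against 3.67%. By family, 11 CYP genes rose and 2 fell, 4 UGT genes rose and 1 fell, 7 GST genes rose and 1 fell, and 4 SULT genes rose and 0 fell. Of the ALDH genes 11 rose and 1 fell, and of the AKR genes 5 rose and 1 fell. The median log2 fold change was 1.86 for SULT, 1.64 for UGT, 0.88 for CYP, 0.64 for ALDH, 0.27 for GST and 0.20 for AKR genes. With 10 in place of 1 added before the logarithm the medians were 1.12 for SULT, 0.92 for UGT, 0.84 for CYP, 0.53 for ALDH, 0.27 for GST and 0.19 for AKR genes. The median of all 67 members was then 0.50, against 0.72 with 1 added. These medians thus depended on the constant, those of SULT and UGT most. Counts of genes at least 2-fold higher were made with 1 added, and for low genes they depend on it too.

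**Figure D1:**
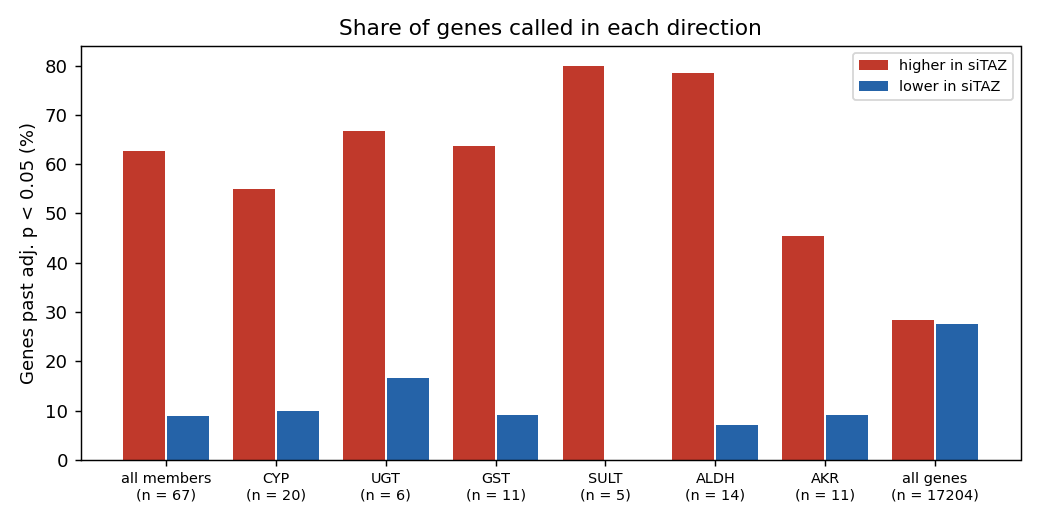
Share of genes (percent, vertical axis) that passed an adjusted p of 0.05 in limma, higher in siTAZ (red) and lower in siTAZ (blue), for all 67 members, each of the 6 families and all genes tested. In every family the share that rose is above the 28.3% of all genes, and the share that fell is below their 27.5%.

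**Figure D2:**
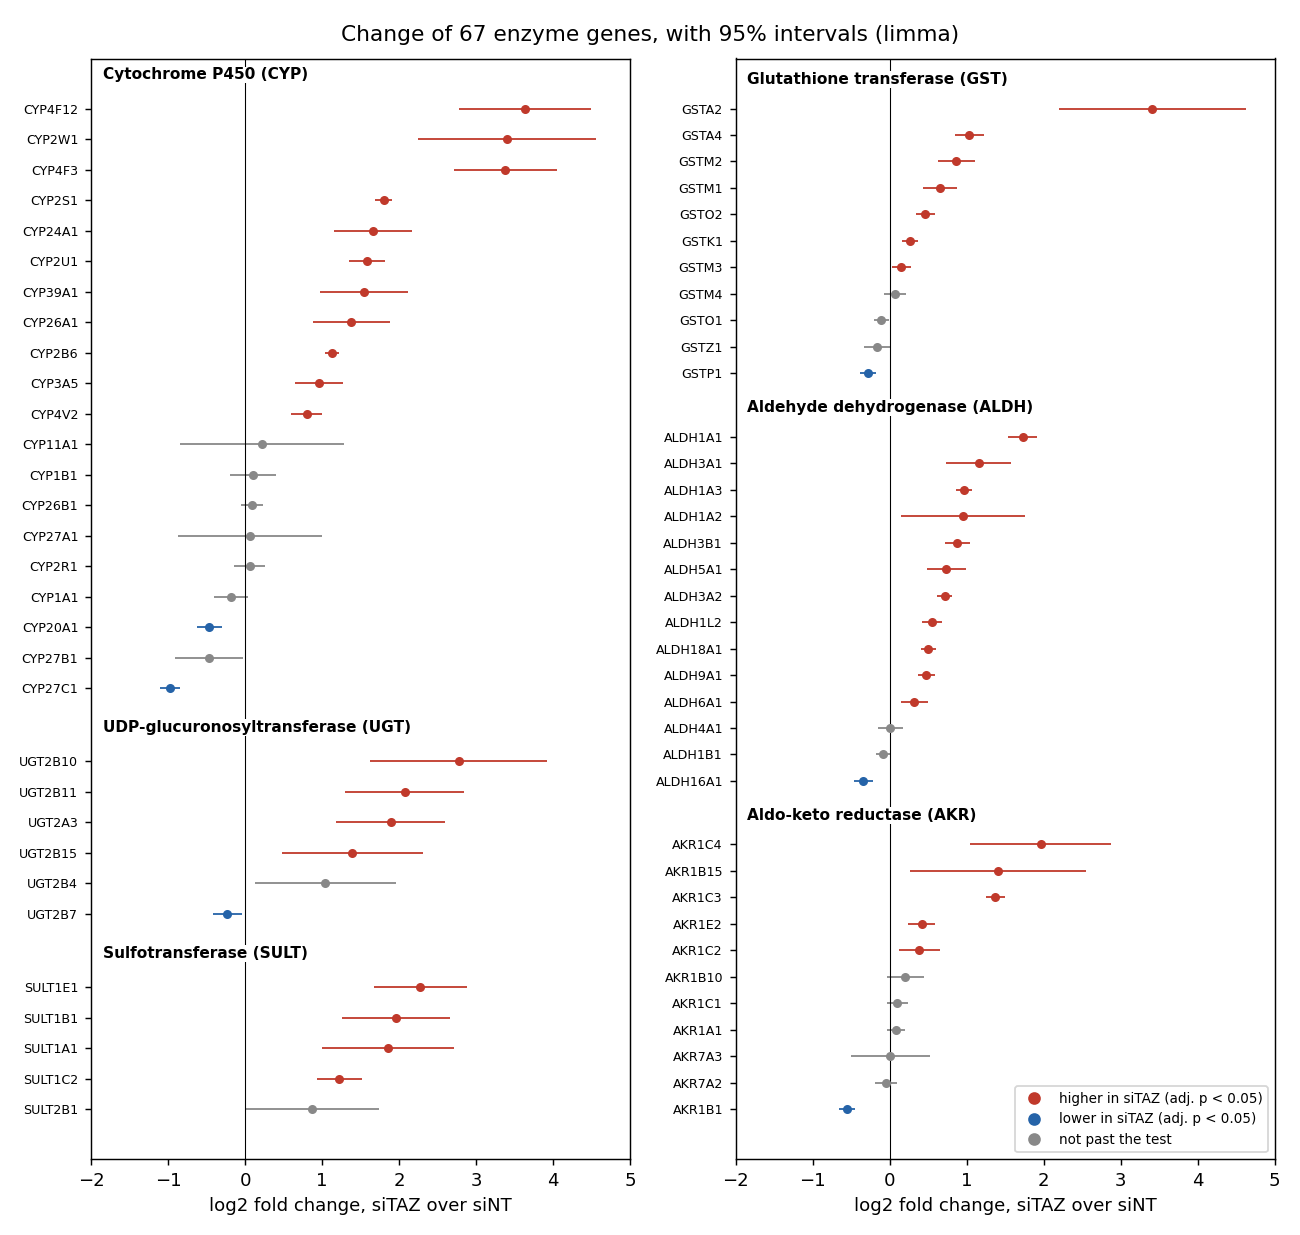
Log2 fold change of each of the 67 members (horizontal axis, siTAZ over siNT) with its unadjusted 95% interval from limma, grouped by family and coloured by the test. Red points (42) rose, blue points (6) fell and grey points (19) did not pass; the fitted value of GSTA2, with no siNT reads, depends on the added constant.

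The summed values of a family need not follow the counts of its genes, because a few abundant members carry most of the reads. The 20 CYP genes together reached 19483 ± 271 in siTAZ and 9928 ± 259 in siNT (mean ± SD, n = 3 each), 1.96-fold higher. The 5 SULT genes summed to 259 ± 34.2 in siTAZ and 91.2 ± 9.77 in siNT, 2.84-fold higher, and the 14 ALDH genes to 27850 ± 460 in siTAZ and 19728 ± 196 in siNT, 1.41-fold higher. The summed level was thus higher in these 3 families, with libraries of the groups well apart. The UGT sum was 537 ± 53.4 in siTAZ and 540 ± 25.3 in siNT, and most of it was UGT2B7, which did not rise. The GST sum was 29642 ± 1311 in siTAZ and 32162 ± 915 in siNT, and the AKR sum 15058 ± 512 in siTAZ and 15698 ± 497 in siNT. In both, the gene with the highest value fell. No test was made on these sums.

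Among P450 enzymes that oxidise foreign compounds, 4 of 6 rose. CYP2B6, which oxidises drugs such as cyclophosphamide and efavirenz, had the highest level per length of the P450 genes and stood at 11265, 11727 and 11488 in siTAZ against 5383, 5335 and 5067 in siNT. It was 2.18-fold higher (log2 fold change 1.13 ± 0.045 SE, limma adjusted p = 3.43e-12). CYP2S1, a P450 of epithelia outside the liver, stood at 4782, 4516 and 4543 in siTAZ against 1324, 1368 and 1283 in siNT. Every siTAZ library of both genes was far above every siNT library, and CYP2S1 was 3.48-fold higher (log2 fold change 1.80 ± 0.050 SE, limma adjusted p = 6.05e-14). CYP2B6 and CYP2S1 lie near each other on chromosome 19. About 9.73% of the 50-base words of CYP2B6 transcripts also occur in other genes, mainly in the pseudogene CYP2B7P, which itself averaged 53.9 in siTAZ and 22.5 in siNT (limma adjusted p = 0.000337).

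CYP3A5, a relative of the main drug-oxidising P450 of liver, stood at 179.8, 227.6 and 180.8 in siTAZ against 121.5, 103.7 and 78.6 in siNT (log2 fold change 0.96, limma adjusted p = 3.37e-05). CYP2W1, a P450 described in colon tumours, was close to the limit of detection, with 41 reads over the siTAZ libraries and 1 read over the siNT libraries. Scaled for depth the ratio was 34.6, with an exact 95% interval of 5.87 to 1398 that covers counting error only. CYP2W1 passed the test (limma adjusted p = 5.03e-05), and its log2 fold change was 3.40 with 1 added to each value and 1.13 with 10 added. CYP1A1 and CYP1B1, which are targets of the aryl hydrocarbon receptor and oxidise polycyclic hydrocarbons and estrogens, did not pass. CYP1A1 stood at 199.5, 165.2 and 203.0 in siTAZ against 204.2, 214.8 and 224.8 in siNT, and its log2 fold change had a 95% interval of -0.41 to 0.04. CYP1B1 averaged 112.5 ± 17.2 in siTAZ and 104.6 ± 12.4 in siNT, with a 95% interval of -0.20 to 0.40.

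All 4 P450 enzymes that hydroxylate fatty acids rose. CYP4F12, which acts on arachidonic acid and other fatty acids, stood at 35.3, 42.2 and 22.2 in siTAZ against 1.05, 3.21 and 1.21 in siNT, from 106 and 5 reads in all. CYP4F3, the enzyme that inactivates leukotriene B4, stood at 48.8, 62.4 and 46.1 in siTAZ against 6.28, 4.28 and 2.42 in siNT. Both were low genes in siNT that became readily measurable in siTAZ, with ratios of means of 18.3 for CYP4F12 and 12.1 for CYP4F3. They are neighbours on chromosome 19 and had the largest log2 fold changes of the P450 genes with a mean of at least 10, at 3.63 ± 0.40 SE for CYP4F12 (limma adjusted p = 8.34e-07) and 3.38 ± 0.32 SE for CYP4F3 (adjusted p = 1.04e-07). With 10 added to each value in place of 1 these were 1.85 for CYP4F12 and 2.12 for CYP4F3. CYP2U1, a fatty acid hydroxylase on chromosome 4, stood at 278.5, 328.6 and 325.0 in siTAZ against 98.4, 95.1 and 114.8 in siNT. CYP2U1 was 3.02-fold higher (log2 fold change 1.59 ± 0.11 SE, limma adjusted p = 2.82e-09), with no overlap between the groups, which its choice required. CYP4V2, which is mutated in a crystalline dystrophy of the retina, averaged 382.4 ± 32.9 in siTAZ and 219.2 ± 17.9 in siNT (log2 fold change 0.80, limma adjusted p = 1.56e-06).

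Enzymes at both ends of retinoid metabolism changed, and not all in 1 direction. The 3 ALDH1A enzymes, which make retinoic acid from retinaldehyde, all rose. ALDH1A1 stood at 697.2, 698.5 and 712.2 in siTAZ against 208.4, 240.5 and 188.5 in siNT, 3.31-fold higher (log2 fold change 1.73 ± 0.088 SE, limma adjusted p = 6.46e-11). ALDH1A3, the highest of the 3 per length, stood at 4443, 4612 and 4653 in siTAZ against 2265, 2348 and 2422 in siNT, 1.95-fold higher (log2 fold change 0.96 ± 0.048 SE, adjusted p = 4.6e-11). The siTAZ libraries of both genes lay close together and clear of the siNT libraries. ALDH1A2 was at 12.5 ± 3.996 in siTAZ and 5.90 ± 1.65 in siNT and passed narrowly (limma adjusted p = 0.0432), but lost the call in 6 of the 14 alternative settings that gave it a value, among them those without siTAZ replicate 1 or 2 (log2 fold change 0.93 and 0.74) and without siNT replicate 1 or 3 (0.76 and 0.98). With 10 added its log2 fold change was 0.49, against 0.95 with 1 added. Part of the ALDH1A3 transcript (25.4% of its 50-base words) is shared on either strand with overlapping transcripts. The antisense gene ALDH1A3-AS1 was also higher, at 379.0 ± 12.1 in siTAZ and 266.3 ± 25.4 in siNT, and the sources used here do not say whether the counting used strand.

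P450 enzymes that act on retinoids did not move together. CYP27C1, which desaturates vitamin A, fell to 512.2, 489.2 and 509.2 in siTAZ, against 972.8, 1033 and 967.9 in siNT. CYP27C1 had the largest fall of the 67 members, with a ratio of siNT to siTAZ means of 1.97 (log2 fold change -0.98 ± 0.063 SE, limma adjusted p = 1.05e-09). CYP26A1, which degrades retinoic acid and is itself induced by it, averaged 51.8 ± 13.8 in siTAZ and 19.1 ± 3.997 in siNT (log2 fold change 1.38, limma adjusted p = 9.44e-05), and 28.9% of its 50-base words are shared with an overlapping transcript. Its relative CYP26B1 was higher in level, also per length, and did not pass, at 687.5 ± 51.1 in siTAZ and 642.4 ± 8.49 in siNT (95% interval of the log2 fold change -0.05 to 0.24). Retinaldehyde itself is made and removed by other dehydrogenases, of which DHRS3 averaged 2779 ± 62.6 in siTAZ and 1835 ± 48.1 in siNT and RDH10 averaged 3607 ± 66.3 in siTAZ and 3253 ± 55.2 in siNT, both higher (limma adjusted p = 1.99e-08 and 0.0104). RDH11 was higher too (log2 fold change 0.28). RDH13 (781.5 ± 46.5 in siTAZ, 1192 ± 36.5 in siNT) and DHRS9 (23.8 ± 8.89 in siTAZ, 48.0 ± 11.1 in siNT) were lower (limma adjusted p = 2.74e-07 and 0.00385), and RDH14, DHRS2 and DHRS4 did not pass.

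**Figure D3:**
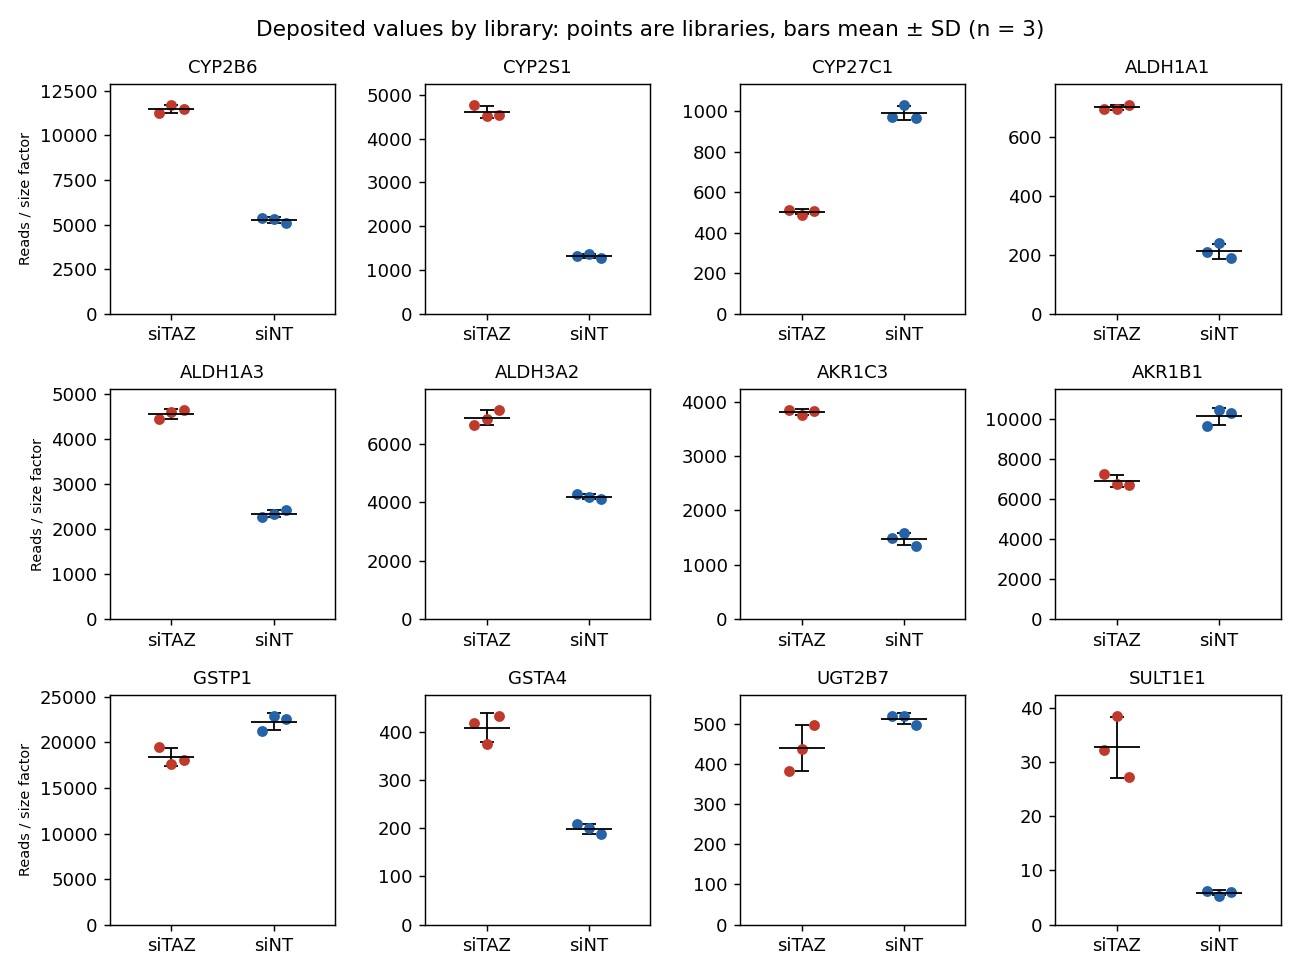
Deposited values (reads divided by size factor, vertical axes from 0) of 12 members in each of the 3 siTAZ and 3 siNT libraries, with the mean and SD. CYP2B6, CYP2S1, ALDH1A1, ALDH1A3, ALDH3A2, AKR1C3, GSTA4 and SULT1E1 are higher and CYP27C1, AKR1B1 and GSTP1 lower in every siTAZ library, while the groups overlap for UGT2B7.

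Of the 3 vitamin D enzymes 1 rose, a share near the 28.3% of all genes. CYP24A1, which inactivates the hormone, stood at 61.3, 61.5 and 71.6 in siTAZ against 19.9, 28.9 and 13.3 in siNT (log2 fold change 1.66 ± 0.24 SE, limma adjusted p = 1.73e-05). CYP27B1, which makes the active hormone, averaged 38.1 ± 6.56 in siTAZ and 53.7 ± 13.4 in siNT and did not pass (adjusted p = 0.0641). CYP2R1, which performs the preceding step, averaged 255.9 ± 20.9 in siTAZ and 245.1 ± 12.9 in siNT and did not pass either. The receptor VDR averaged 472.5 ± 8.87 in siTAZ and 496.5 ± 21.6 in siNT. Among the sterol enzymes CYP39A1, an oxysterol hydroxylase of bile acid synthesis, averaged 37.1 ± 9.90 in siTAZ and 11.9 ± 2.11 in siNT (log2 fold change 1.55, limma adjusted p = 0.000109), and CYP11A1 and CYP27A1 had means near 10 in both groups and did not pass. CYP20A1, a P450 with no settled substrate, fell (428.9 ± 41.2 in siTAZ and 588.9 ± 9.49 in siNT, log2 fold change -0.46, limma adjusted p = 8.61e-05).

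Of the 5 ALDH enzymes that clear lipid and other aldehydes, 4 rose. ALDH3A2, the fatty aldehyde dehydrogenase lost in Sjögren-Larsson syndrome, stood at 6658, 6858 and 7161 in siTAZ against 4291, 4167 and 4128 in siNT (log2 fold change 0.72 ± 0.046 SE, limma adjusted p = 1.02e-09). ALDH3B1, which oxidises aldehydes of lipid peroxidation, stood at 935.1, 816.9 and 869.1 in siTAZ against 435.6, 521.6 and 467.7 in siNT (log2 fold change 0.88 ± 0.077 SE, adjusted p = 4.86e-08). ALDH3A1, an abundant protein of the cornea and a neighbour of ALDH3A2 on chromosome 17, was low here. It stood at 67.5, 68.8 and 88.7 in siTAZ against 42.9, 31.0 and 26.6 in siNT (log2 fold change 1.16 ± 0.20 SE, limma adjusted p = 9.7e-05). ALDH9A1, which acts in carnitine synthesis, averaged 1859 ± 40.6 in siTAZ and 1335 ± 24.2 in siNT. The mitochondrial ALDH1B1 did not pass, at 2621 ± 38.9 in siTAZ and 2775 ± 13.9 in siNT.

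Of the 5 ALDH enzymes of amino acid and folate metabolism, 4 rose as well, and by less than ALDH1A1. ALDH18A1, which starts proline synthesis, stood at 5225, 4971 and 5084 in siTAZ against 3584, 3626 and 3561 in siNT (log2 fold change 0.50 ± 0.045 SE, limma adjusted p = 5.54e-08). ALDH5A1, which clears succinic semialdehyde, stood at 253.5, 323.1 and 335.2 in siTAZ against 205.2, 179.6 and 159.5 in siNT (log2 fold change 0.74 ± 0.12 SE, adjusted p = 4.76e-05). In all 4 that rose the groups did not overlap, and the others were the mitochondrial folate enzyme ALDH1L2 (log2 fold change 0.56) and ALDH6A1 of valine breakdown (0.32). ALDH4A1, which degrades proline, averaged 763.6 ± 59.7 in siTAZ and 759.8 ± 69.6 in siNT. ALDH16A1, an unusual member of the family, was the ALDH gene that fell (1680 ± 122 in siTAZ and 2129 ± 88.6 in siNT, log2 fold change -0.34, limma adjusted p = 9.95e-05). ALDH2, outside the naming rule but the main acetaldehyde dehydrogenase, also rose, at 2598 ± 80.1 in siTAZ and 1934 ± 26.2 in siNT (log2 fold change 0.42, adjusted p = 1.21e-06).

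The AKR1C genes, which interconvert active and inactive steroids, form 1 array on chromosome 10 and did not move equally. AKR1C3, which makes testosterone and prostaglandin F, stood at 3848, 3751 and 3830 in siTAZ against 1489, 1584 and 1351 in siNT. It was 2.58-fold higher (log2 fold change 1.37 ± 0.057 SE, limma adjusted p = 5.98e-12). AKR1C1, which inactivates progesterone, stood at 804.2, 753.5 and 736.9 in siTAZ against 741.4, 698.0 and 699.7 in siNT. The siTAZ and siNT values of AKR1C1 overlapped, and the 95% interval of its log2 fold change was -0.03 to 0.24, which ends well below that of AKR1C3 (1.25 to 1.49). AKR1C2, which inactivates dihydrotestosterone, stood at 126.8, 121.2 and 116.0 in siTAZ against 85.9, 104.8 and 88.2 in siNT (log2 fold change 0.39 ± 0.13 SE, limma adjusted p = 0.0159), a call lost in 3 of 15 alternative settings, among them those without siNT replicate 1 (0.33) or 3 (0.35). AKR1C4, known from liver, stood at 13.5, 22.0 and 12.8 in siTAZ against 2.09, 6.41 and 2.42 in siNT (log2 fold change 1.96, or 0.93 with 10 added; limma adjusted p = 0.000923). The 4 genes are similar in sequence, so reads can be assigned to the wrong copy. Of the 50-base words of AKR1C2 48.1% occur in other genes, mainly AKR1C1, as do 27.0% of those of AKR1C1, 11.9% of AKR1C4 and 9.55% of AKR1C3.

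The AKR1C promoters differ as well. Over the whole 300-base windows in RefSeq, AKR1C1 was 93.5% identical to AKR1C2, 74.4% to AKR1C3 and 64.0% to AKR1C4. TATAAA began 29 bases before the start of AKR1C4, its reverse complement began 26 bases before that of AKR1C3, and neither occurred in that interval in AKR1C1 or AKR1C2. Over all members, TATAAA on either strand began 20 to 40 bases before the start in 6 of 56 promoters (10.7%), against 1003 of 34943 RefSeq promoters (2.87%). Of the 6 genes, AKR1C3, AKR1C4, GSTA2, SULT1B1 and SULT1E1 rose and CYP1A1 did not pass the test. Of all 67 members 62.7% rose. A match is a description of the letters and does not show a site in use.

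Other motifs were searched on both strands of the whole 300-base windows. GGAATG, the letters bound by TEAD factors, occurred in 3 of 56 member promoters (5.36%), those of CYP2B6, CYP2W1 and SULT1E1, against 14.0% of all promoters. TGACNNNGC, the core of the antioxidant response element, occurred in 10 (17.9%) against 13.3%, and GCGTG, the core bound by the aryl hydrocarbon receptor, in 17 (30.4%) against 36.5%. The last bases of TGACNNNGC can be the first of GCGTG, but these matches did not overlap in any member promoter. TATAAA anywhere in the window occurred in 11 (19.6%) against 11.6%. The AP-1 letters TGANTCA occurred in 2 (3.57%) against 7.72%, and the CDX letters TTTATNG in 5 (8.93%) against 9.75%. Some of these matches are not independent of other motifs. In CYP1A1 and CYP26B1 a CDX match overlaps a TATAAA match. In GSTP1 the matches to TGANTCA and TGACNNNGC begin at the same base. The forkhead letters TGTTTAC occurred in 3 (5.36%) against 3.42%, and the HNF4 letters CAAAGTCCA in 1 (1.79%) against 0.383%. Those of HNF1 and of a retinoic acid repeat occurred in 0, against 0.117% and 0.0801%.

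**Figure D4:**
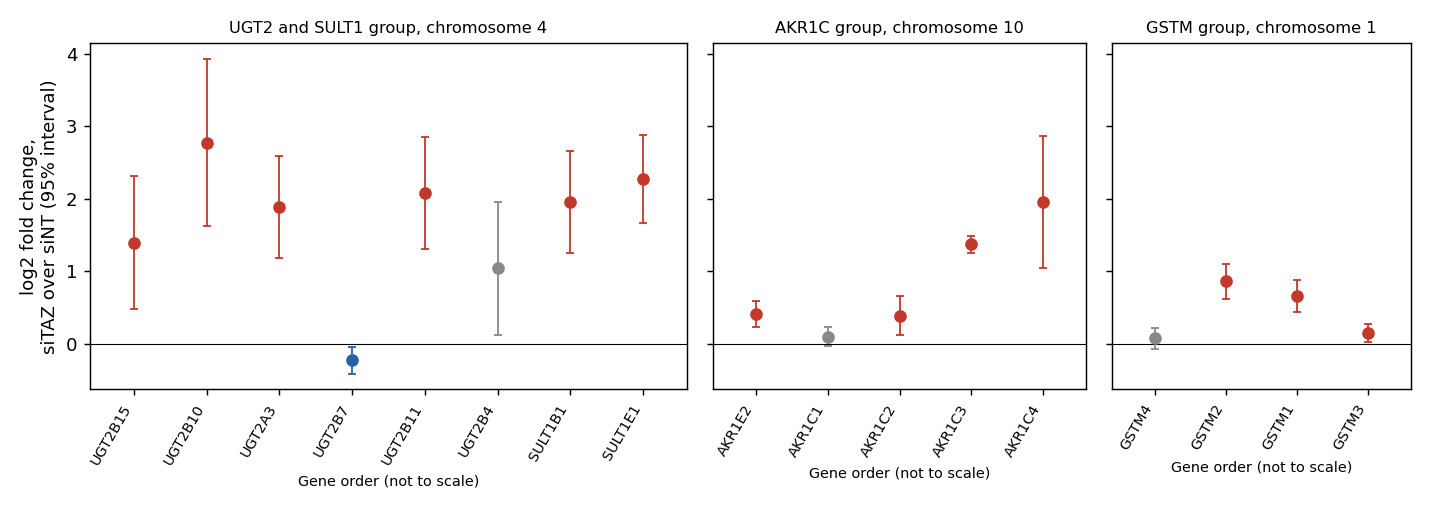
Log2 fold change with unadjusted 95% interval (vertical axis, siTAZ over siNT) of members that are neighbours on chromosomes 4, 10 and 1, in gene order and not to scale; red rose, blue fell and grey did not pass the limma test. UGT2B7 lies below 0 between neighbours that rose, and AKR1C1 lies near 0 in an array where AKR1C3 is at 1.37.

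Of the other reductases AKR1B1, the aldose reductase that turns glucose into sorbitol, fell to 7266, 6793 and 6723 in siTAZ, against 9692, 10472 and 10305 in siNT. The ratio of siNT to siTAZ means was 1.47 (log2 fold change -0.55 ± 0.048 SE, limma adjusted p = 4.42e-08). Its array neighbours AKR1B10 and AKR1B15 were not called lower. AKR1B10, which reduces retinaldehyde and is induced in several carcinomas, averaged 174.7 ± 12.5 in siTAZ and 152.2 ± 18.3 in siNT and did not pass. AKR1B15 averaged 10.5 ± 3.82 in siTAZ and 4.26 ± 4.50 in siNT and passed (limma adjusted p = 0.0356), although the groups overlapped. AKR1B15 lost the call in 6 of the 14 alternative settings that gave it a value. Its log2 fold change was 1.41, or 0.55 with 10 added, and the call was lost without siTAZ replicate 2 (1.15) or 3 (1.45) and without siNT replicate 2 (1.20) or 3 (0.95). AKR1E2, a testis-enriched reductase of a sugar derivative at the edge of the AKR1C array, stood at 339.8, 332.3 and 325.8 in siTAZ against 258.6, 235.2 and 255.0 in siNT (log2 fold change 0.41 ± 0.083 SE, adjusted p = 0.000435). AKR1A1, AKR7A2 and AKR7A3, which reduce a broad range of aldehydes, did not pass.

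Of the 5 low genes among the glucuronidating enzymes 4 rose, and the abundant UGT2B7 did not. UGT2B7, which conjugates morphine, steroids and fatty acids, stood at 383.4, 437.8 and 497.2 in siTAZ against 520.4, 519.5 and 496.7 in siNT. The groups overlapped, and although UGT2B7 was called lower (log2 fold change -0.23 ± 0.087 SE, limma adjusted p = 0.034) the call was lost in 8 of 15 alternative settings, over which the adjusted p ran between 0.0057 and 0.16. Without siTAZ replicate 1 its log2 fold change was -0.13, and the call was also lost without siTAZ replicate 2 (-0.23) or any 1 siNT library (-0.22 to -0.25). UGT2A3, which conjugates bile acids, stood at 33.3, 31.2 and 28.2 in siTAZ against 13.6, 6.41 and 4.83 in siNT (log2 fold change 1.89 ± 0.33 SE, limma adjusted p = 0.000123; 1.19 with 10 added). UGT2B11, whose substrates are little studied, stood at 15.6, 23.0 and 22.2 in siTAZ against 3.14, 3.21 and 6.04 in siNT (log2 fold change 2.08 ± 0.37 SE, adjusted p = 0.000124; 1.09 with 10 added). In both every siTAZ library lay above every siNT library, which the choice of these genes required. UGT2B15, which conjugates androgens, stood at 21.8, 21.1 and 16.2 in siTAZ against 13.6, 8.55 and 2.42 in siNT (log2 fold change 1.40 ± 0.43 SE, limma adjusted p = 0.0115; 0.75 with 10 added), and without siNT replicate 3 its log2 fold change was 0.80 and the call was lost. UGT2B10, which conjugates nicotine, averaged 16.7 ± 4.45 in siTAZ and 2.11 ± 2.09 in siNT and rose (limma adjusted p = 0.000345). UGT2B4 averaged 10.1 ± 2.38 in siTAZ and 4.67 ± 2.48 in siNT and narrowly did not pass (limma adjusted p = 0.0503). Its log2 fold change was 1.04, or 0.46 with 10 added, and it passed in 5 of the 14 alternative settings that gave it a value.

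The UGT2 genes share sequence with each other and with pseudogenes of the array: 47.3% of the 50-base words of UGT2B11, 30.9% of UGT2B10 and 27.8% of UGT2B15 occur elsewhere, against 5.38% of UGT2B7. The promoter windows of UGT2B10 and UGT2B11 were 90.1% identical, and each was less like that of UGT2B7 (63.1% for UGT2B10 and 64.0% for UGT2B11). The same stretch of chromosome 4 holds SULT1B1 and SULT1E1, so that 6 of its 8 listed members rose and 1 fell. Over all genes 28.3% rose and 27.5% fell.

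Of the 5 sulfotransferases 4 rose, all at least 2-fold and all from a low level. SULT1E1, the estrogen sulfotransferase, stood at 32.2, 38.6 and 27.3 in siTAZ against 6.28, 5.34 and 6.04 in siNT, 5.55-fold higher (log2 fold change 2.28 ± 0.29 SE, limma adjusted p = 3.54e-06; 1.42 with 10 added). SULT1B1, which sulfates thyroid hormones and phenols, stood at 49.9, 62.4 and 46.1 in siTAZ against 22.0, 15.0 and 6.04 in siNT (log2 fold change 1.96 ± 0.33 SE, adjusted p = 8.89e-05). SULT1C2, the highest of the 5 per length, stood at 147.5, 171.6 and 128.8 in siTAZ against 65.97, 59.9 and 62.8 in siNT (log2 fold change 1.23 ± 0.14 SE, adjusted p = 8.6e-07). No siNT library reached the lowest siTAZ library in any of the 3, which the choice of these genes required. SULT1A1, the main phenol sulfotransferase, averaged 14.7 ± 4.02 in siTAZ and 3.33 ± 1.12 in siNT and rose (limma adjusted p = 0.000876). Of its 50-base words 19.9% are shared with close copies, and 23.6% of those of SULT1E1 are shared with AC108941.2. SULT2B1, which sulfates cholesterol, averaged 9.81 ± 3.63 in siTAZ and 4.74 ± 0.963 in siNT and did not pass.

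The glutathione transferases were split between 1 very abundant gene that fell and smaller ones that mostly rose. GSTP1, the main glutathione transferase of many carcinomas, stood at 19471, 17586 and 18022 in siTAZ against 21230, 22942 and 22607 in siNT. The ratio of siNT to siTAZ means was 1.21 (log2 fold change -0.28 ± 0.050 SE, limma adjusted p = 0.000147), with no overlap. GSTA4, which conjugates hydroxynonenal from lipid peroxidation, stood at 417.7, 375.4 and 434.1 in siTAZ against 208.4, 201.0 and 187.3 in siNT (log2 fold change 1.04 ± 0.089 SE, adjusted p = 3.7e-08). Its neighbour on chromosome 6, GSTA2, a liver enzyme, had 31 reads over the siTAZ libraries and 0 over the siNT libraries. Against a floor of 3 counts in each library GSTA2 was at least 2.90-fold higher (limma adjusted p = 7.85e-05), and its siNT level was not detectable at this depth. Of the words of GSTA2 18.4% are shared, mainly with GSTA1.

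In the GSTM array on chromosome 1, GSTM2 stood at 218.2, 196.4 and 194.5 in siTAZ against 123.6, 109.0 and 101.5 in siNT (log2 fold change 0.86 ± 0.11 SE, limma adjusted p = 5.46e-06). GSTM1 stood at 397.9, 346.0 and 348.8 in siTAZ against 215.7, 270.4 and 207.8 in siNT (log2 fold change 0.66 ± 0.10 SE, adjusted p = 4.06e-05). Both rose clear of the siNT libraries, yet 55.9% of the words of GSTM1 and 37.9% of those of GSTM2 occur in other genes, mostly in each other and GSTM4, so how the rise divides between them is uncertain. GSTM3 averaged 1074 ± 34.1 in siTAZ and 966.5 ± 32.5 in siNT (log2 fold change 0.15, limma adjusted p = 0.034). Its call was lost in 6 of 15 alternative settings, among them those without siTAZ replicate 1 or 2 (0.13 and 0.15) and without siNT replicate 1 or 2 (0.14 and 0.13). Beside it GSTM4 averaged 653.2 ± 39.9 in siTAZ and 619.7 ± 16.0 in siNT, which did not pass. GSTO2, which reduces dehydroascorbate, stood at 1038, 1000.4 and 1043 in siTAZ against 772.8, 739.7 and 721.4 in siNT (log2 fold change 0.46 ± 0.059 SE, limma adjusted p = 4.17e-06). Its array partner GSTO1 did not pass, at 2595 ± 55.0 in siTAZ and 2794 ± 77.6 in siNT. GSTK1, of mitochondria and peroxisomes, stood at 4643, 4399 and 4523 in siTAZ against 3783, 3896 and 3600 in siNT (log2 fold change 0.27 ± 0.048 SE, limma adjusted p = 0.000149), and GSTZ1, of tyrosine breakdown, did not pass.

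Levels of different genes can be compared per kilobase of transcript, taking the length of the principal transcript in GENCODE. On that scale the most abundant members in siTAZ were GSTP1 (19105 per kilobase in siTAZ, 23163 in siNT), AKR1B1 (4916 in siTAZ, 7208 in siNT) and GSTK1 (4331 in siTAZ, 3601 in siNT). These 3 led in both groups. CYP2B6 was next, at 3704 ± 74.5 in siTAZ and 1696 ± 54.9 in siNT, above GSTO1 (2669 ± 56.6) in siTAZ and below it (2874 ± 79.8) in siNT. AKR1C3 ranked 6 in siTAZ and 11 in siNT, CYP2S1 ranked 8 and 16, and ALDH1A3 ranked 10 and 14. Neighbours in this order such as ALDH3A2 (1755 ± 64.4 in siTAZ) and CYP2S1 (1658 ± 52.6 in siTAZ) differed by less than 2 of their SDs.

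**Figure D5:**
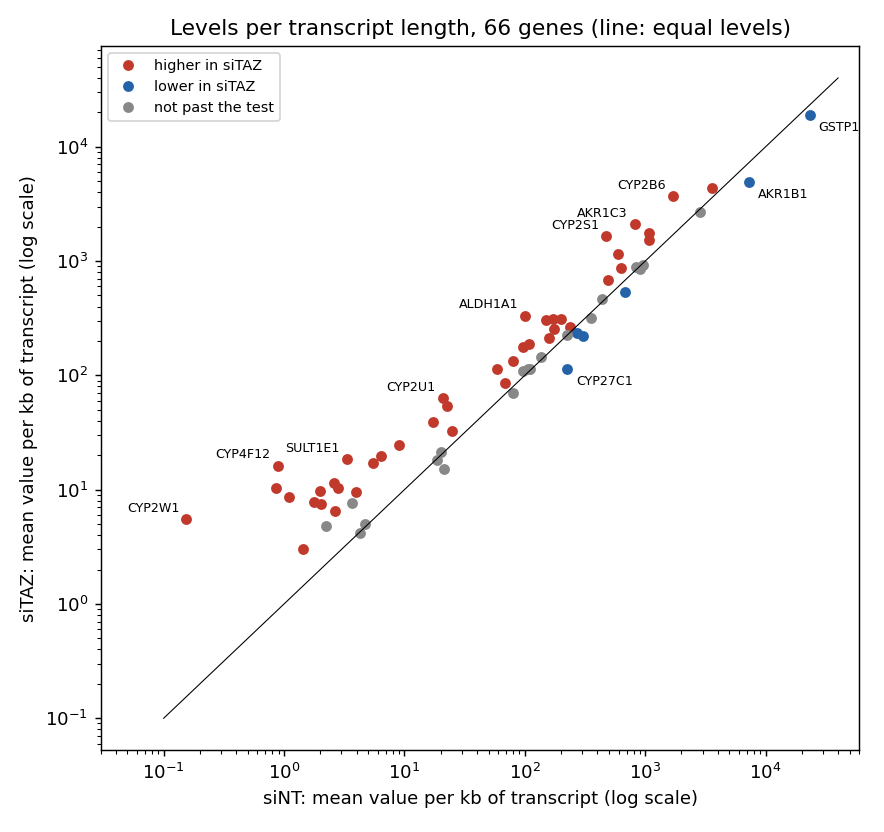
Mean deposited value per kilobase of principal transcript in siTAZ (vertical, log scale) against siNT (horizontal, log scale) for 66 members, without GSTA2, which had no siNT reads. GSTP1 and AKR1B1, the most abundant members, lie below the line of equal levels, CYP2B6, AKR1C3 and CYP2S1 lie above it, and the low genes at the left lie mostly above it.

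The rest of the pathway was read from 4 lists of genes that are not members. List genes given in every library were called ones with the smallest adjusted p. That choice favours groups that do not overlap, so a lack of overlap is no added support for them. Electron donors and heme supply, which P450 enzymes need, had 6 of 22 genes higher (27.3%) and 6 lower (27.3%), shares near the 28.3% and 27.5% of all genes, with a median log2 fold change of -0.05. POR, the reductase that feeds microsomal P450 enzymes, averaged 4570 ± 169 in siTAZ and 4341 ± 217 in siNT and did not pass. CYB5R4, a cytochrome b5 reductase, stood at 391.7, 424.0 and 457.1 in siTAZ against 826.2, 817.7 and 778.2 in siNT (log2 fold change -0.93). Every siTAZ library of CYB5R4 was below every siNT library, and the same held for PGRMC2 and UROD. PGRMC2, a heme chaperone, stood at 2304.6, 2398.3 and 2325.8 in siTAZ against 3639.8, 3612.9 and 3479.0 in siNT (log2 fold change -0.61). UROD, an enzyme of heme synthesis, stood at 2306.6, 2169.8 and 2193.6 in siTAZ against 3181.2, 3261.2 and 3311.1 in siNT (log2 fold change -0.55).

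Of 33 sensors and transcriptional regulators tested 18 (54.5%) rose and 8 (24.2%) fell, against 28.3% and 27.5% of all genes, with a median log2 fold change of 0.28. NR0B2, a nuclear receptor that represses bile acid synthesis, stood at 1302, 1112 and 1091 in siTAZ against 207.3, 246.9 and 215.1 in siNT (log2 fold change 2.38, limma adjusted p = 1.19e-12). CDX2, an intestinal transcription factor, stood at 881.1, 814.1 and 836.7 in siTAZ against 260.7, 295.0 and 314.2 in siNT (log2 fold change 1.54, limma adjusted p = 6.88e-11). Every siTAZ library of NR0B2 and CDX2 was above every siNT library. The aryl hydrocarbon receptor AHR rose (log2 fold change 0.54) and so did its repressor AHRR (0.98), beside the uncalled CYP1A1 and CYP1B1. NFE2L2, which drives antioxidant response genes, averaged 4568 ± 88.6 in siTAZ and 4371 ± 87.4 in siNT and did not pass, and its inhibitor KEAP1 was called lower (log2 fold change -0.13, limma adjusted p = 0.0441) with groups that overlapped. The count of these regulators that fell ran between 6 and 8 when 1 library was left out.

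Among 21 genes that make, carry or break down cofactors of conjugation, 11 (52.4%) rose and 4 (19.0%) fell, against 28.3% and 27.5% of all genes. The median log2 fold change of the 21 was 0.14. SLC26A1, a sulfate transporter, stood at 364.7, 313.0 and 302.8 in siTAZ against 102.6, 121.9 and 107.5 in siNT (log2 fold change 1.55, limma adjusted p = 2.78e-09). PAPSS2, which activates sulfate, also rose (log2 fold change 0.52). For glucuronidation the transporter SLC35D1 stood at 1322.7, 1424.5 and 1478.9 in siTAZ against 799.0, 748.2 and 725.0 in siNT (log2 fold change 0.89). The libraries of the groups did not overlap in SLC26A1 or SLC35D1. UGDH, which makes UDP-glucuronic acid, fell to 6258 ± 369 in siTAZ, against 8131 ± 175 in siNT (log2 fold change -0.38). CHAC1, which breaks down glutathione, stood at 114.3, 101.9 and 107.5 in siTAZ against 246.1, 237.3 and 273.1 in siNT (log2 fold change -1.22, limma adjusted p = 4.28e-08). Of 40 other drug and aldehyde enzymes 18 (45.0%) rose and 8 (20%) fell, against 28.3% and 27.5% of all genes, with a median log2 fold change of 0.17. The flavin monooxygenase FMO5 stood at 735.6, 782.0 and 776.1 in siTAZ against 200, 204.2 and 180.1 in siNT (log2 fold change 1.97, limma adjusted p = 3.81e-12). The soluble epoxide hydrolase EPHX2 stood at 149.6, 143.2 and 141.6 in siTAZ against 34.6, 47.0 and 35.0 in siNT (log2 fold change 1.88). The quinone reductase NQO1 stood at 7025.9, 7073.7 and 7125.0 in siTAZ against 4052.4, 3963.5 and 4018.0 in siNT (log2 fold change 0.82). Every siTAZ library of FMO5, EPHX2 and NQO1 was above every siNT library.

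Because liver and gut express many of these enzymes, markers of other cell types were read in the same libraries. Over all genes tested 28.3% rose and 27.5% fell. All 5 hepatocyte markers listed (ALB, APOA1, APOB, TTR and SERPINA1) rose, with summed values of 499 to 644 in siTAZ and 56.5 to 73.8 in siNT, and APOB had no reads in siNT. All 4 enterocyte markers listed (VIL1, FABP1, LGALS4 and CDH17) rose, with sums of 25017 to 25804 in siTAZ and 8533 to 9240 in siNT. CDH17 (16127 ± 118 in siTAZ, 5754 ± 264 in siNT) and VIL1 (8178 ± 279.6 in siTAZ, 3120 ± 299.9 in siNT) were abundant in both groups. FABP1 (560.8 ± 93.8 in siTAZ, 74.6 ± 21.5 in siNT) and LGALS4 (436.9 ± 93.5 in siTAZ, 33.3 ± 11.2 in siNT) were low in siNT. The 8 epithelial markers listed summed to 92366 to 100618 in siTAZ and 96359 to 104805 in siNT, most of it keratins, of which KRT8 and KRT19 rose and KRT18 and KRT7 fell, with EPCAM and CDH1 higher. PAX8 (18.2 ± 3.28 in siTAZ, 28.8 ± 13.9 in siNT) and MUC16 (7.98 ± 1.55 in siTAZ, 11.95 ± 3.67 in siNT), which mark many ovarian carcinomas, were low in both groups. Fibroblast markers (6 of 8 listed) summed to 6615 to 7502 in siTAZ and 5610 to 6399 in siNT, and 3 of them rose and COL1A2 fell (1.31 ± 1.14 in siTAZ, 12.6 ± 2.69 in siNT). Leukocyte markers (3 of 6 listed) summed to 268 to 318 in siTAZ and 137 to 145 in siNT, and no endothelial marker was analysed here. The part of these shifts in the change of the enzyme genes was not tested.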

How the data were processed

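Per the submitters' processing notes, reads were processed with FastQC, HISAT2, HTSeq and DESeq2 against hg19. The sources used here do not give tool versions, annotation, strand setting, read length or the filter on genes. The library kit was stranded, per the labels' protocols. The deposited values are a signal, reads per gene divided by the library's size factor (0.828 to 1.17). From the values, 100% were whole multiples of 1 read within 0.001 read, so whole reads were recovered.

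Ensembl identifiers were named by an identifier table (16662 genes) and GENCODE 29 (81 genes), and 468 genes stayed unnamed. GENCODE is of GRCh38 and served for names, gene types, transcript length and shared 50-base words. Promoters and gene order are of RefSeq GRCh38.p14. The order of members within 10 genes of each other made the arrays.

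limma 3.58.1 in R 4.3.3, with an intensity trend, was fitted to log2(value + 1) of all 17204 genes whose mean was 1 or more, with group as the only term. P-values were Benjamini-Hochberg adjusted over all of them. Log2 fold changes of low genes on this scale depend on the added constant and can differ from the ratio of means in either direction. CYP11A1 had a ratio of siTAZ to siNT means of 0.967 and a log2 fold change of 0.22. The alternatives were a pseudocount of 10, no filter, at least 1 CPM in 3 libraries, scaling by totals or TMM, a replicate block, each library left out, and count tests on the recovered reads with edgeR 4.0.16, DESeq2 1.42.0 and limma voom. Scripts were tested on simulated data. The interval of the CYP2W1 ratio and the floor for GSTA2 cover counting error only, and reads had no molecular identifiers. Intervals of log2 fold changes are from limma and rest on the scatter among libraries.

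The members, lists and tests were chosen with earlier results of these data known, so no list is independent support. Values in every library were given by rule for, per family, up to 5 called members by size of change, whose mean reached 10 and whose libraries did not overlap, and the 2 highest means, and per list the 3 called genes with the smallest adjusted p. A gene that this rule takes is not reported here. Other genes named with values, some of them in every library, were chosen after their values were seen.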

Additional observations from a re-analysis of the deposited data

How the results depend on the processing

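Under every alternative the counts stayed within 1.5 times those reported: 29 to 44 members rose and 5 to 7 fell. The 29 was with at least 1 CPM in 3 libraries, where 50 members were left. Of the 42 members that rose, 37 kept call and direction in every alternative that gave them a value, and 5 lost the call in some (AKR1B15, AKR1C2, ALDH1A2, GSTM3 and UGT2B15). Of the 6 that fell, 5 kept it and UGT2B7 lost it. Of the 19 not called, AKR1A1, CYP27B1, GSTO1, GSTZ1 and UGT2B4 passed in some alternative, and 7 changed sign. These were AKR7A2 (0.0054 with total count scaling, -0.1222 to 0.0097 without a library), AKR7A3 (-0.0021 with a pseudocount of 10, -0.0393 with edgeR, -0.0449 with DESeq2, -0.2423 to 0.2443 without a library), CYP11A1 (-0.0037 with edgeR, -0.0297 with DESeq2, -0.429 to 0.7233 without a library), CYP1B1 (-0.0097 to 0.21), CYP2R1 (-0.006 to 0.1022), CYP27A1 (-0.377 to 0.3492) and ALDH4A1 (-0.0699 to 0.0693), the last 4 without a library. The cause was not tested. Leaving out each library gave 38 to 41 members that rose, 5 to 7 that fell and 8540 to 9674 genes called in all.

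The replicate numbers do not pair the samples: deviations of same-numbered libraries correlated at -0.085, -0.0219 and 0.0061 over 17204 genes, so libraries did not all go best with their own number. With the replicate block 40 members rose, 5 fell and 8701 genes were called in all, against 9604 without it. Total count scaling moved the median of all genes to 0.05. In an alternative chosen after seeing the data, with only the 54 members that share at most 20% of their 50-base words, 33 rose and 6 fell. Depth limits GSTA2 and CYP2W1 most, whose fitted log2 fold changes were 3.41 with 1 added and 0.97 with 10 added for GSTA2, and 3.40 with 1 added and 1.13 with 10 added for CYP2W1.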
